A study of Mus musculus with 14 samples.

Results

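The 9 genes described here, Fos, Fosb, Fosl1, Fosl2, Jun, Junb, Jund, Atf3 and Batf, encode AP-1 transcription factors and were chosen by name from the 21887 protein-coding genes of the mouse RefSeq annotation (GRCm38.p6). For each gene, the peaks of H3K9cr and H3K9ac were collected over the gene body and the 10 kb beyond either end, and the length under a peak is called its cover. H3K9cr and H3K9ac are a crotonyl and an acetyl group on lysine 9 of histone H3, and both are found at active genes. ChIP-seq pulls down chromatin with an antibody against the mark and sequences its DNA, so that marked stretches of the genome stand out as peaks. The peaks came from whole kidneys of WT and ACSS2-/- mice, taken as control or after UUO (unilateral ureteric obstruction), in which the left ureter is tied off and the kidney becomes inflamed and fibrotic. ACSS2 is an enzyme that makes acyl-CoA, including crotonyl-CoA, from short-chain acids. According to the methods, the ACSS2-/- mice carried a global CRISPR/Cas9 deletion, so every cell type lacked the enzyme, the WT mice were littermates, and C57BL/6J mice of young adult age were used. The labels give neither the age nor the sex of these mice, nor the days after surgery, and their letter C was read as control.

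H3K9cr had 2 libraries in each of the 4 groups (WT control, ACSS2-/- control, WT UUO and ACSS2-/- UUO), while H3K9ac had 2 per group in UUO and 1 per group in control kidneys, which makes 14 libraries. The lists of peaks hold positions with no height, so a longer cover says that more of the window passed the threshold of the peak caller, not that the signal was stronger. Read depth is not known from them. H3K9cr peaks covered 41.7 to 64.6 Mb of the genome in control and 29.4 to 44.6 Mb in UUO libraries, and H3K9ac peaks 34.2 to 51.1 Mb in control and 17.7 to 30.9 Mb in UUO libraries. A gene may therefore differ because the whole library covers less, and the counts of AP-1 genes in each comparison are given beside the percentage of all genes that met the same criterion. The labels do not say whether replicates came from separate mice, and p-values measure the spread between these libraries only. In 4 libraries the peak names carry another number than the label, and the label was followed. A peak lay in the window of Acss2 in all libraries, which does not check the deletion because its place in the gene is not given.

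AP-1 is a dimer of basic leucine zipper proteins that binds short sites in promoters and enhancers. Fos proteins have to pair with a Jun protein, whereas Jun proteins can also pair with each other, and Atf3 and Batf join them as partners that can repress or redirect the dimer. Fos, Jun and Atf3 are immediate-early genes, induced within minutes by growth factors, cytokines and stress through the MAP kinases, and AP-1 is known to act in injured tubules, in fibroblasts and in leukocytes.

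A promoter sequence was found in RefSeq (GRCm38.p6) for 8 of the 9 genes, Fosl1 being the one without an entry. The 250 bases before the annotated start are shown for the 4 genes whose sequence there holds a site of the kind that AP-1, ATF and CREB proteins bind or a TATA box, with the matches in capitals. They are given because H3K9ac peaks break at the starts of Fos and Atf3 and peaks of both marks come and go at the start of Batf. Fos lies at chr12:85473640-85473889 on the plus strand, Jun at chr4:95052223-95052472 on the minus strand, Atf3 at chr1:191183334-191183583 on the minus strand and Batf at chr12:85686470-85686719 on the plus strand.
Fos: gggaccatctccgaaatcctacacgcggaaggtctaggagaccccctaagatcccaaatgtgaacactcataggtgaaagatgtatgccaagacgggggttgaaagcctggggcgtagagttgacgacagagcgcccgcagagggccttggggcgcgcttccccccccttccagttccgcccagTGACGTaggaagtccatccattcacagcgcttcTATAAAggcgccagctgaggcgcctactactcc
Jun: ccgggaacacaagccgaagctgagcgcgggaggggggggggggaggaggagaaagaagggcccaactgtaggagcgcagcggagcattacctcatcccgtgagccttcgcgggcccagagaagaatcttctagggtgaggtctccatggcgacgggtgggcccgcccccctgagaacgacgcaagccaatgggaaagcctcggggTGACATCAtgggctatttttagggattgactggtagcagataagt
Atf3: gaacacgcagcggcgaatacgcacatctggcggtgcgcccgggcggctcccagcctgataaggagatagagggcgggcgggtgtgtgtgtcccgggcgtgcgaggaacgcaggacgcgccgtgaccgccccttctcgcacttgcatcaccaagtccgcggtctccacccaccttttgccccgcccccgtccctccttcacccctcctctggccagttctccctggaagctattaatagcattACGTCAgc
Batf: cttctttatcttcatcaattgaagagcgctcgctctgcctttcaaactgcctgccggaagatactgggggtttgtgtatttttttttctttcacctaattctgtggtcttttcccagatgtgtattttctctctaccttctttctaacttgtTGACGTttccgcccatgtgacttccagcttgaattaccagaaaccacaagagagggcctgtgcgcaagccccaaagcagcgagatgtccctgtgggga
In each of them the sequence runs 5′ to 3′ towards the start of the gene.

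The capitals in Fos mark a TGACGT, the core of a cyclic AMP response element, at 66 to 61 bases before the start and a TATAAA at 33 to 28 bases before it. In Jun they mark the TGACATCA at 45 to 38 bases before the start, a match to TGACNTCA. Atf3 holds an ACGTCA, the same core on the other strand, at 8 to 3 bases before its start, and Batf holds a TGACGT at 98 to 93 bases before it. The windows searched ran from 250 bases before to 50 bases after the start. Of 17492 promoters of this length, 8.76% held TGACGT on either strand, 8.94% TGACNTCA on either strand and 9.0% TATAAA on the strand of the gene. TGANTCA takes in the classic AP-1 site, whose middle base is C or G, and is wider than it. This pattern was in none of the 8 windows and in 7.08% of all promoters. A CArG box, the site of the serum response factor, was in none of the 8 and in 1.54% of all. Sites outside these windows were not searched. A match of letters is a description and no evidence of binding.

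Peaks at the gene starts themselves were present almost throughout. A peak lay within 1 kb of the start in all 14 libraries for Fos, Fosb, Fosl2, Jun, Junb, Jund and Atf3, as it did for 44.9% of the 17492 genes with a known strand. Batf had such a peak in 6 of 14 libraries. The whole 300 bases around the start were under H3K9cr peaks in 8 of 8 libraries for Fos, Jun, Junb, Fosl2 and Atf3, in 6 for Jund, in 3 for Batf and in 2 for Fosb. H3K9ac peaks covered them in 6 of 6 libraries for Junb and Fosl2, in 5 for Jun, 4 for Fos, 3 for Atf3, 1 for Jund, 1 for Fosb and none for Batf. The starts of Junb and Fosl2, the genes with the longest H3K9cr cover of the 9, were thus under both marks in all libraries, while Batf had no peak at its start in 8 of 14. The values of the 9 genes in every library are plotted below by mark and group.

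**Figure D1:**
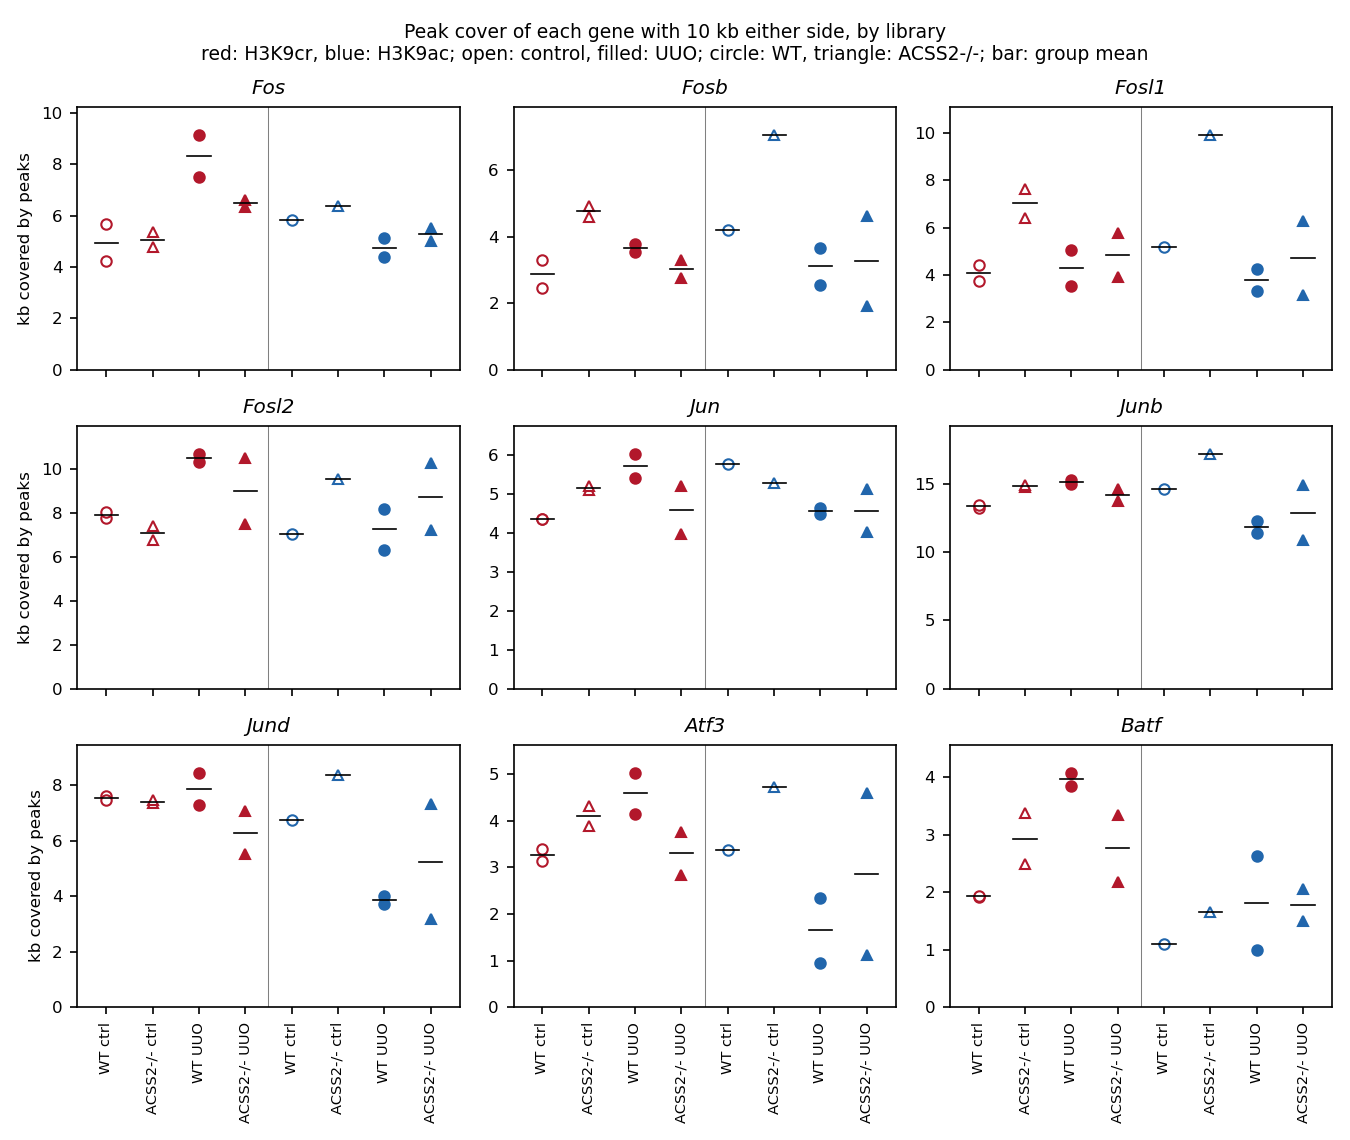
Each panel plots, for 1 gene, the kb of the gene body with 10 kb either side that lay under a peak, with 1 point per library, H3K9cr in red and H3K9ac in blue, open symbols for control and filled for UUO, circles for WT and triangles for ACSS2-/- kidneys, and a bar at the group mean. Fos is the gene whose 4 H3K9cr UUO libraries, at 6.35 to 9.13 kb, all lie above its 4 H3K9cr control libraries, at 4.23 to 5.66 kb.

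H3K9cr was compared between UUO and control kidneys, with the genotypes together, to ask whether obstruction goes with a wider mark. Fos, the founding member of the family, carried more H3K9cr in UUO, whereas the other 8 genes overlapped between the groups. Fos cover was 4.23 and 5.66 kb in the WT control libraries, 4.76 and 5.36 kb in the ACSS2-/- control libraries, 9.13 and 7.49 kb in the WT UUO libraries and 6.62 and 6.35 kb in the ACSS2-/- UUO libraries. The lowest UUO library lay above the highest control library, and the means were 7.40 ± 1.25 kb (SD, n = 4) and 5.0 ± 0.64 kb (SD, n = 4). The difference of 2.40 kb had an exact two-sided permutation p of 0.0286, the smallest that 4 libraries against 4 allow, and 0.139 after Benjamini-Hochberg adjustment over 16360 genes. The permutation exchanged libraries across the genotypes, so this p takes no account of genotype. No gene of the 16360 passed an adjusted 0.05, and 3372 had an unadjusted p under 0.05. Of all genes tested, 2.34% were higher in UUO without overlap and 18.3% lower, so 1 of 9 AP-1 genes higher and 0 lower stood against a background in which lower was the more frequent direction. The median difference over the 9 genes was 0.41 kb, beside -0.31 kb over all genes tested. Fos was higher whichever library was left out. Without ACSS2-/- UUO replicate 2 the higher genes were 3 (Fos, Fosl2 and Jun), beside 6.55% of all genes. Without WT UUO replicate 1 Jund was lower, as were 26.1% of all genes. As a share of the total cover of the library, 6 of 9 were higher (Fos, Fosl2, Jun, Junb, Atf3 and Batf) and 0 lower, beside 16.4% and 7.42% of all genes. In the narrower windows, 3 kb either side and 1 kb around the start, no AP-1 gene separated, Fos included. There 2.41% and 1.96% of all genes were higher, and 16.9% and 8.6% lower.

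Fosl2, which encodes Fra-2, also had longer cover in UUO, but with an overlap. Its control libraries held 7.76 and 8.07 kb in WT and 7.43 and 6.78 kb in ACSS2-/- kidneys, and its UUO libraries 10.34 and 10.71 kb in WT and 10.50 and 7.49 kb in ACSS2-/- kidneys. ACSS2-/- UUO replicate 2 stood among the controls, apart from the other 3 UUO libraries. The difference of 2.25 kb had an exact permutation p of 0.0857, adjusted 0.253. Most of it was a broad domain around the start of Fosl2, which merged over the H3K9cr libraries ran from 4.90 kb before to 7.11 kb after it, while 2 short regions farther into the gene were each found in 1 library. Batf, which pairs with Jun proteins in lymphocytes, had 3.36 ± 0.85 kb in UUO and 2.43 ± 0.68 kb in control libraries (SD, n = 4 each, exact permutation p 0.143, adjusted 0.332). The differences of the other 6 genes ran from -0.99 kb in Fosl1 to 0.54 kb in Junb.

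Most of the longer cover of Fos, 1.67 of 2.40 kb, lay in the stretch before the gene. H3K9cr peaks covered 3.24 to 5.26 kb of the 10 kb before its start in UUO libraries and 2.13 to 2.66 kb in control libraries. In the gene body, the ranges were 1.08 to 1.95 kb and 0.85 to 1.13 kb, which overlap, with a difference of 0.39 kb. In the 10 kb after the gene they were 1.88 to 2.02 kb and 1.03 to 1.88 kb, with a difference of 0.33 kb. Peaks of the 8 H3K9cr libraries were then merged into regions, of which 39 lay in the windows of the 9 genes, and 1 of these was present in all 4 UUO libraries and no control library. It lies 7.05 to 5.19 kb before Fos, at chr12:85466839-85468702, outside any annotated gene. The peaks in it were 1782 and 1168 bp long in the WT UUO libraries and 552 and 410 bp in the ACSS2-/- UUO libraries, and none of the 6 H3K9ac libraries had a peak there. Of 71205 H3K9cr regions of the genome, 0.528% had this pattern and 1.87% the opposite one, which 0 of the 39 had. None of the 39 was present in both WT UUO libraries and absent from both ACSS2-/- UUO libraries, as 2.47% of all regions were. Another region, 4.79 to 3.64 kb before the start, was found in 4 UUO libraries and 1 control library, also without H3K9ac. The region around the start, 2.64 kb before to 1.95 kb after it, and a region 11.36 to 14.21 kb after it were present in all 14 libraries.

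**Figure D2:**
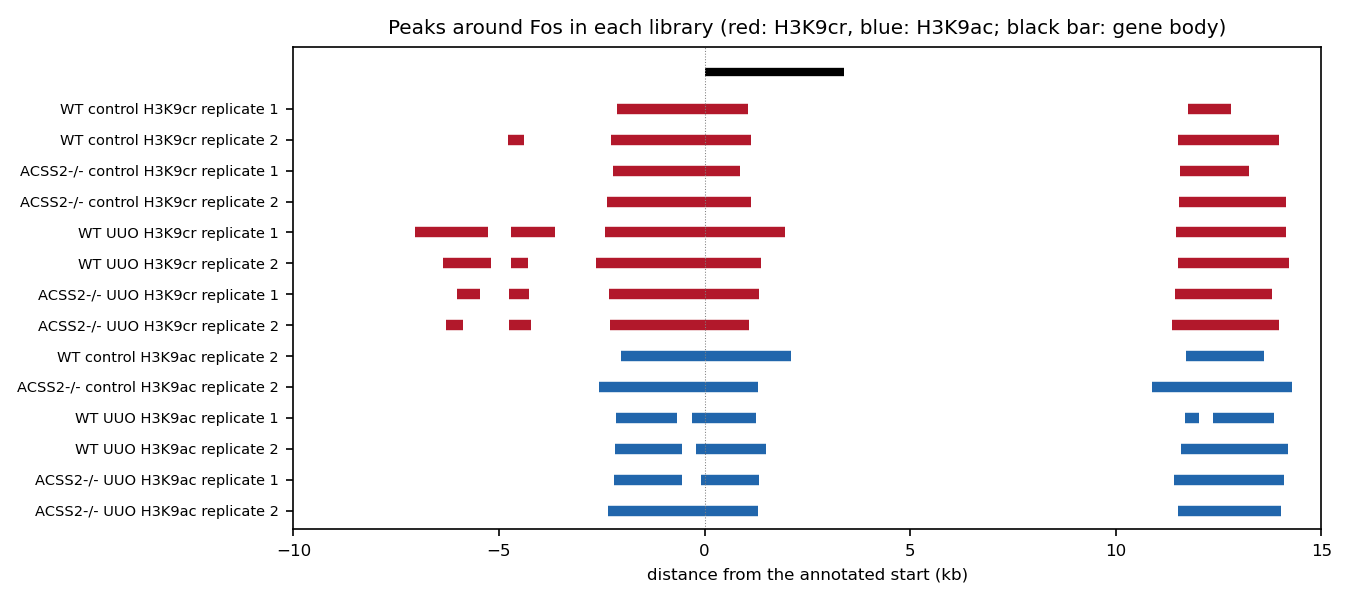
Peaks around Fos are drawn to scale by distance from its annotated start in kb, with 1 line per library, H3K9cr in red, H3K9ac in blue and the gene body in black. Peaks between 7.05 and 5.19 kb before the start appear in the 4 H3K9cr UUO libraries and in none of the other 10.

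Of the 39 regions, 14 were present in all 8 H3K9cr libraries (21.2% of all H3K9cr regions were), 14 had no H3K9ac peak in any library, and 24 had no annotated start within 1 kb. Only starts of genes with a known strand could count, so Fosl1 could not. A region over an end of the Fosl1 body, at chr19:5447407-5449010, is therefore among the 24. For regions without H3K9ac and for those without a start nearby, the share over all H3K9cr regions was not counted. These counts are therefore no trait of the AP-1 genes. Batf had 2 constant regions inside its body, at 11.01 to 12.36 kb and 17.85 to 19.68 kb from the start. The region at the start of Batf, 0.61 kb before to 1.05 kb after it, was found in 3 of 4 H3K9cr UUO and 1 of 4 H3K9cr control libraries, and in 2 of 4 H3K9ac UUO and 0 of 2 H3K9ac control libraries. Jund, which encodes the Jun protein of resting cells, had a region 9.57 to 8.84 kb before its start in 3 control and 0 UUO libraries of H3K9cr. Fosb had one 8.73 to 9.55 kb after its start, at the start of the lncRNA Gm26802, in 3 control and 0 UUO libraries of H3K9cr, while H3K9ac had a peak there in 2 of 2 control and 3 of 4 UUO libraries. Some windows hold other genes. The largest region near Fosl1 (Fra-1), at chr19:5455297-5461569, spans the starts of Ccdc85b and Fibp, and the strand of Fosl1 is not given. The window of Junb holds Rnaseh2a and Prdx2, so 13.22 to 15.29 kb of H3K9cr cover, the longest of the 9 genes, is shared with these neighbours.

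The genotypes were then taken one at a time. In WT kidneys, 7 of 9 genes (Fos, Fosb, Fosl2, Jun, Junb, Atf3 and Batf) had more H3K9cr cover in both UUO libraries than in both control libraries, and none had less, whereas 21.8% of all genes were higher and 26.7% lower. In ACSS2-/- kidneys, 2 of 9 (Fos and Fosl2) were higher and 5 (Fosb, Fosl1, Junb, Jund and Atf3) lower, beside 4.35% and 54.5% of all genes. With 2 libraries against 2, the exact permutation p cannot go below 0.333, so these are counts of groups that do not overlap. The effect of UUO in WT kidneys was 3.37 kb for Fos, 2.61 kb for Fosl2, 2.04 kb for Batf, 1.78 kb for Junb, 1.37 kb for Jun, 1.33 kb for Atf3 and 0.80 kb for Fosb. In ACSS2-/- kidneys it was 1.43 kb for Fos, 1.89 kb for Fosl2, -0.17 kb for Batf, -0.70 kb for Junb, -0.55 kb for Jun, -0.80 kb for Atf3 and -1.73 kb for Fosb. Fosb, Junb and Atf3 went opposite ways in the genotypes without overlap, higher in WT and lower in ACSS2-/- kidneys, as 5.79% of all genes did, while 0.141% did the reverse.

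The difference between these effects was tested by permuting the genotypes within control and UUO kidneys, a test added after the values had been seen. Its p assumes no genotype difference in control or in UUO kidneys, so it is not exact for the question of equal effects alone. The effect was larger in WT than in ACSS2-/- kidneys for all 9 genes. How many of all genes did the same, or reached the smallest p, was not counted. The 9 of 9 is therefore not read as a trait of the AP-1 genes. The median effect over all genes was -0.03 kb in WT and -0.66 kb in ACSS2-/- kidneys. For Fosb, Jun, Junb, Atf3 and Batf the permutation p was 0.0556, the smallest that 36 arrangements give, with an adjusted p of 0.523 over all genes. The permutation p was 0.222 for Fos, whose effects differed by 1.94 kb. The total cover of the libraries moved beside it, from 41.7 to 44.8 Mb in WT control to 35.0 to 44.6 Mb in WT UUO, and from 51.4 to 64.6 Mb in ACSS2-/- control to 29.4 to 39.7 Mb in ACSS2-/- UUO libraries. When cover was divided by that total, 8 of 9 genes were higher in UUO in WT kidneys (30.9% of all genes were, and 20% lower) and 7 of 9 in ACSS2-/- kidneys (42.5% and 15.7%), and none was lower in either. On that scale the effect was larger in WT kidneys for 4 of 9 genes, a share not counted over all genes. None of the 9 went opposite ways, as 0.935% and 2.73% of all genes did in the 2 directions. The opposite directions of Fosb, Junb and Atf3 thus hold for the length covered and not for its share of the total cover of the library.

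**Figure D3:**
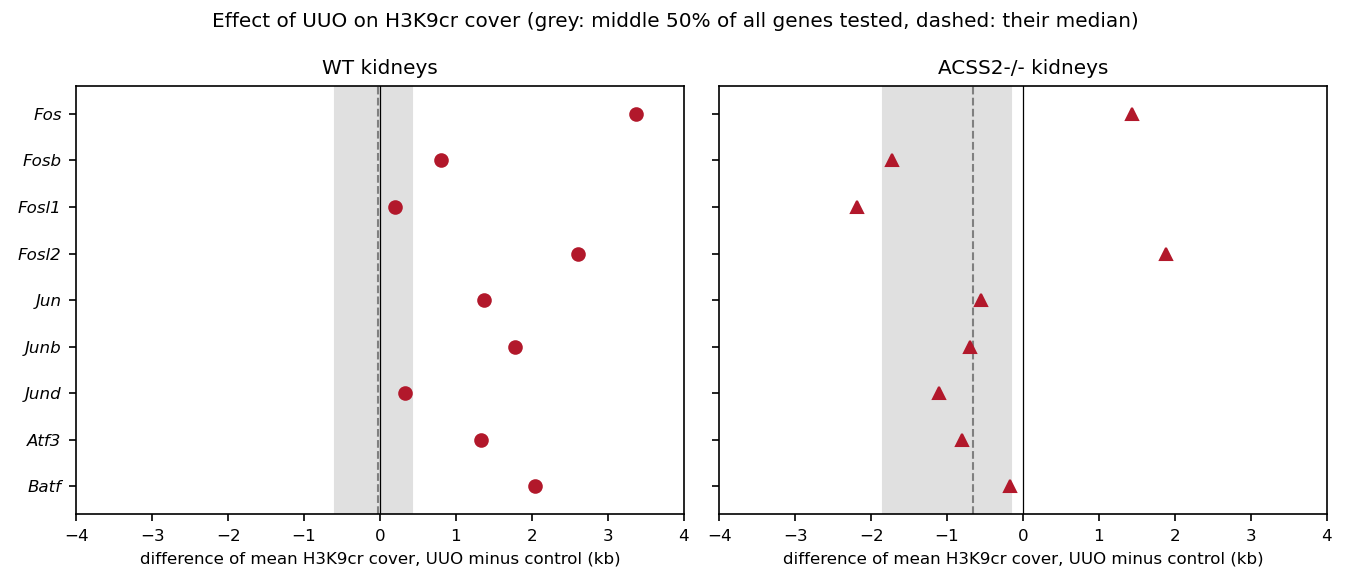
Points give the difference of mean H3K9cr cover, UUO minus control, in kb for each of the 9 genes in WT (left) and ACSS2-/- kidneys (right), and the grey band holds the middle 50% of all genes tested with a dashed line at their median. In WT kidneys all 9 points lie right of 0 and of the median of -0.03 kb, and in ACSS2-/- kidneys Fos at 1.43 kb and Fosl2 at 1.89 kb are the points right of 0, with a median of all genes of -0.66 kb.

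In whole kidneys, a change in the number of cells of a type and a change of the mark within cells cannot be told apart. The cover summed over 10 kidney tubule markers was 56.6 to 102 kb in H3K9cr control and 22.0 to 33.6 kb in H3K9cr UUO libraries, and that over 10 leukocyte markers 5.48 to 14.1 kb and 20.5 to 49.3 kb. In control libraries 3 of the 10 leukocyte markers had an H3K9cr peak, with Ptprc, C1qa, C1qb, Itgam, Cd3e and Lyz2 among those at 0, and in UUO libraries 6 to 8 had one, with Itgam among those at 0. All 10 tubule markers, Lrp2, Cubn and Umod among them, had a peak in every H3K9cr control library, so the tissue of the label was present. The 5 injured tubule markers summed to 4.75 to 7.30 kb and 5.49 to 18.6 kb, the 6 stroma markers to 4.33 to 11.1 kb and 5.13 to 16.6 kb, the 5 endothelial markers to 8.49 to 32.5 kb and 4.50 to 14.7 kb, and the 5 podocyte markers to 15.1 to 33.8 kb and 15 to 28.8 kb. Taken by genotype, 7 of the 8 leukocyte markers with an H3K9cr peak were higher in UUO in WT kidneys and none lower, and 4 were higher and 1 lower in ACSS2-/- kidneys. Of the 5 injured tubule markers, 4 were higher and none lower in WT kidneys, and 1 was higher and 1 lower in ACSS2-/- kidneys. Of the 10 tubule markers, 1 was higher and 9 lower in WT, and 0 and 9 in ACSS2-/- kidneys. In the same order, endothelial markers gave 1 and 3, then 0 and 4, podocyte markers 2 and 1, then 0 and 2, and stroma markers 3 and 0, then 2 and 0. Of all genes, 21.8% were higher and 26.7% lower in WT kidneys, and 4.35% and 54.5% in ACSS2-/- kidneys. The part of these markers in the values of the AP-1 genes was not tested.

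The cover of H3K9ac was shorter in UUO, though not as a share of the total. Of the 9 genes, 8 had a lower mean in UUO, and Fos and Jun were lower without overlap, beside 49.7% of all genes lower and 0.375% higher. Fos held 5.82 and 6.39 kb in the control libraries of WT and ACSS2-/- mice, 4.37 and 5.13 kb in the WT UUO libraries and 5.02 and 5.52 kb in the ACSS2-/- UUO libraries. Jun held 5.77 and 5.29 kb in control, and 4.47, 4.65, 4.02 and 5.12 kb in UUO libraries in the same order. The differences were -1.09 kb for Fos and -0.96 kb for Jun, each with an exact permutation p of 0.0667, the smallest that 4 libraries against 2 allow, and an adjusted p of 0.155. Here too libraries were exchanged across the genotypes. The share of AP-1 genes lower, 2 of 9, was under that of all genes. Leaving out WT control replicate 2 or ACSS2-/- UUO replicate 2 gave 7 lower genes (Fos, Fosb, Fosl1, Jun, Junb, Jund and Atf3), beside 84% and 74.1% of all genes, a share near that of the AP-1 genes. As a share of the total cover the direction turned, with 4 genes higher in UUO (Fos, Fosl2, Junb and Batf) and 0 lower, beside 23.1% and 11.2% of all genes. In the same libraries, the tubule markers summed to 63.2 to 75.7 kb in control and 9.13 to 22.1 kb in UUO, and the leukocyte markers to 9.13 to 18.6 kb and 13.6 to 44.7 kb. Atf3, a stress-induced repressor, had 0.96 and 2.35 kb in WT UUO and 1.11 and 4.59 kb in ACSS2-/- UUO libraries, against 3.36 and 4.73 kb in control. The highest Atf3 value in UUO was in ACSS2-/- UUO replicate 2, which also had the highest value of the 4 H3K9ac UUO libraries in 8 of the 9 genes and the most cover over the genome.

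The H3K9ac peaks at Fos and Atf3 were also broken near the start in UUO. A start was counted as interrupted when 2 neighbouring peaks left a gap that reached into the 1 kb before to 500 bp after it, both peaks reaching into the 3 kb before to 1.5 kb after it, a measure added after the values had been seen. In H3K9ac UUO libraries 12 of 30 AP-1 starts with a peak there (8 genes in 4 libraries) were interrupted, or 40%, beside 12.6% of the starts of all genes with a peak there. These were 3 each in Fos, Atf3 and Fosb, 2 in Jund and 1 in Jun, and Fosb was interrupted in all 4 H3K9cr control libraries as well. The same gene counts up to 4 times here, so the 40% does not stand for 30 separate starts. In H3K9ac control, H3K9cr control and H3K9cr UUO libraries the AP-1 genes stood at 14.3%, 13.8% and 12.9%, beside 10%, 9.12% and 9.77% of all. Fos was interrupted in 3 of 4 H3K9ac UUO libraries, by gaps of 378, 328 and 469 bp that ended 295, 213 and 81 bp before the start, and in none of the other 10 libraries. The gap in ACSS2-/- UUO replicate 1 ended just before the TGACGT shown above. Atf3 was interrupted in the same 3 libraries by gaps of 421, 369 and 413 bp that held the start and its ACGTCA, and in no other. The library without either gap was again ACSS2-/- UUO replicate 2. Jund was interrupted in both ACSS2-/- UUO libraries of H3K9cr and in neither WT UUO library. The 3 libraries with these gaps were also those with the least H3K9ac cover over the genome, 17.7 to 21.2 Mb, and the part of that in the gaps was not tested.

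**Figure D4:**
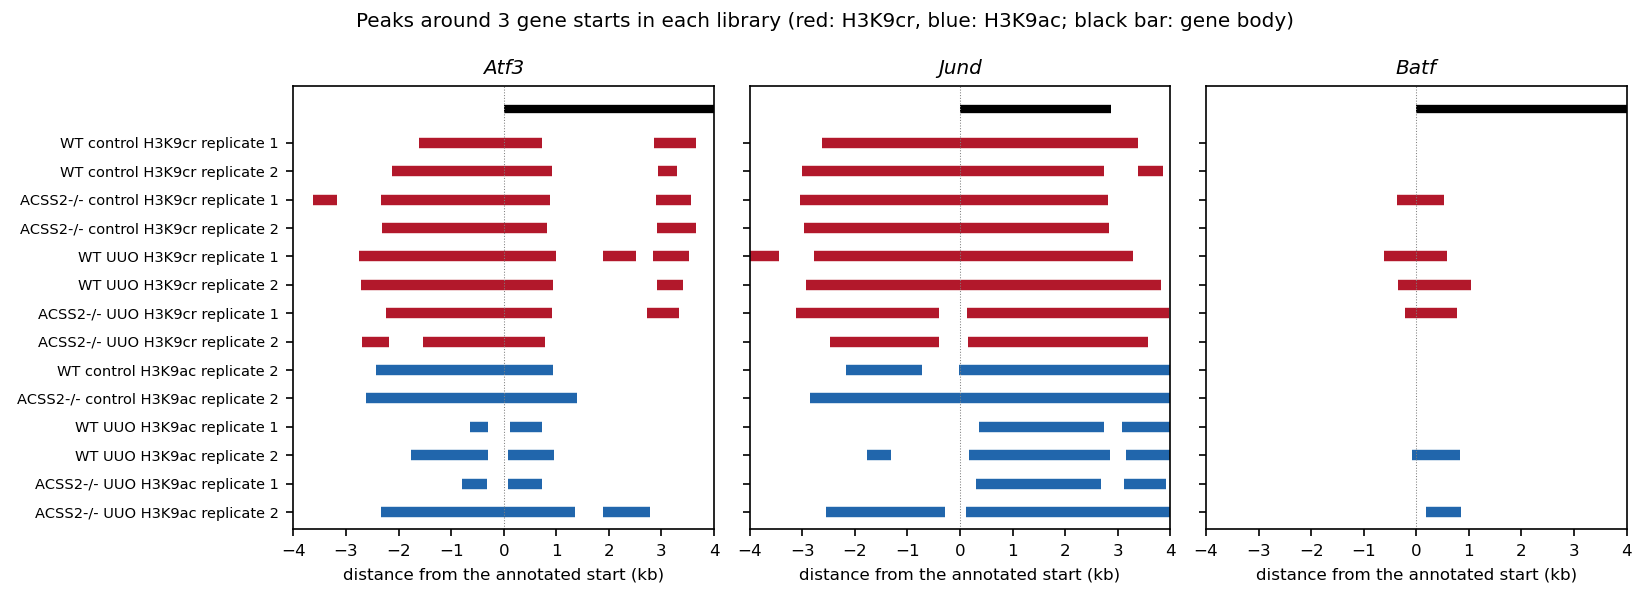
Peaks within 4 kb of the starts of Atf3, Jund and Batf are drawn to scale by distance from the start in kb, with 1 line per library, H3K9cr in red, H3K9ac in blue and the gene body in black. Atf3 has a gap at its start in 3 of 4 H3K9ac UUO libraries, Jund in both ACSS2-/- UUO libraries of H3K9cr, and Batf has a peak at its start in 6 of 14 libraries.

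The genotypes were then compared within UUO kidneys, the comparison on which the study turns. H3K9cr cover was lower in ACSS2-/- than in WT kidneys without overlap for 7 of 9 genes (Fos, Fosb, Jun, Junb, Jund, Atf3 and Batf) and higher for none, beside 24.5% of all genes lower and 6.9% higher. The median difference over the 9 genes was -1.2 kb, beside -0.20 kb over 15878 genes. Each of the 7 had an exact permutation p of 0.333, the smallest that 2 libraries against 2 allow, and an adjusted p of 1. Jun held 5.42 and 6.03 kb in WT and 5.20 and 3.98 kb in ACSS2-/- libraries, Jund 8.44 and 7.28 kb against 7.08 and 5.51 kb. Atf3 held 5.03 and 4.16 kb against 3.77 and 2.84 kb, and Batf 3.85 and 4.08 kb against 3.35 and 2.17 kb. The nearest WT and ACSS2-/- libraries were 0.21 kb apart in Jun, 0.20 kb in Jund and 0.51 kb in Batf. In Fosb the values were 3.79 and 3.54 kb against 3.30 and 2.75 kb, and in Junb 14.95 and 15.29 kb against 14.57 and 13.74 kb. The largest difference, -1.82 kb, was that of Fos. Fosl1 and Fosl2 overlapped between the genotypes. As a share of the total cover of the library, 3 of 9 genes were lower (Jund, Atf3 and Batf) and Fosl1 was higher, beside 12.8% and 19.3% of all genes.

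Of the 10 leukocyte markers, 8 could be compared in these UUO libraries, and 5 of them were lower in ACSS2-/- kidneys, with a median difference of -1.85 kb. Of the 5 injured tubule markers 3 were lower, with a median of -0.94 kb, and of the 10 tubule markers 4 were higher and 2 lower, with a median of 0.15 kb. Of the 5 podocyte markers 2 were lower and none higher, and none of the 6 stroma and 5 endothelial markers separated. Of all genes, 24.5% were lower and 6.9% higher. The part of these in the lower AP-1 values was not tested.

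H3K9ac gave 0 of 9 genes without overlap between the genotypes in UUO kidneys, beside 30.5% of all genes higher in ACSS2-/- kidneys and 1.78% lower. None of the 9 had a permutation p below 0.667. These counts turn on single libraries, since without ACSS2-/- UUO replicate 2, 5 genes were lower and none higher (29.1% and 33.9% of all genes), and without ACSS2-/- UUO replicate 1, 8 were higher and none lower (84.9% and 2.23% of all genes). With the replicate number as a block, 3 were higher and none lower, beside 50.7% and 4.9% of all genes. The differences ran from -0.03 kb in Batf to 1.5 kb in Fosl2. The plot of the genotype differences sets both marks side by side.

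**Figure D5:**
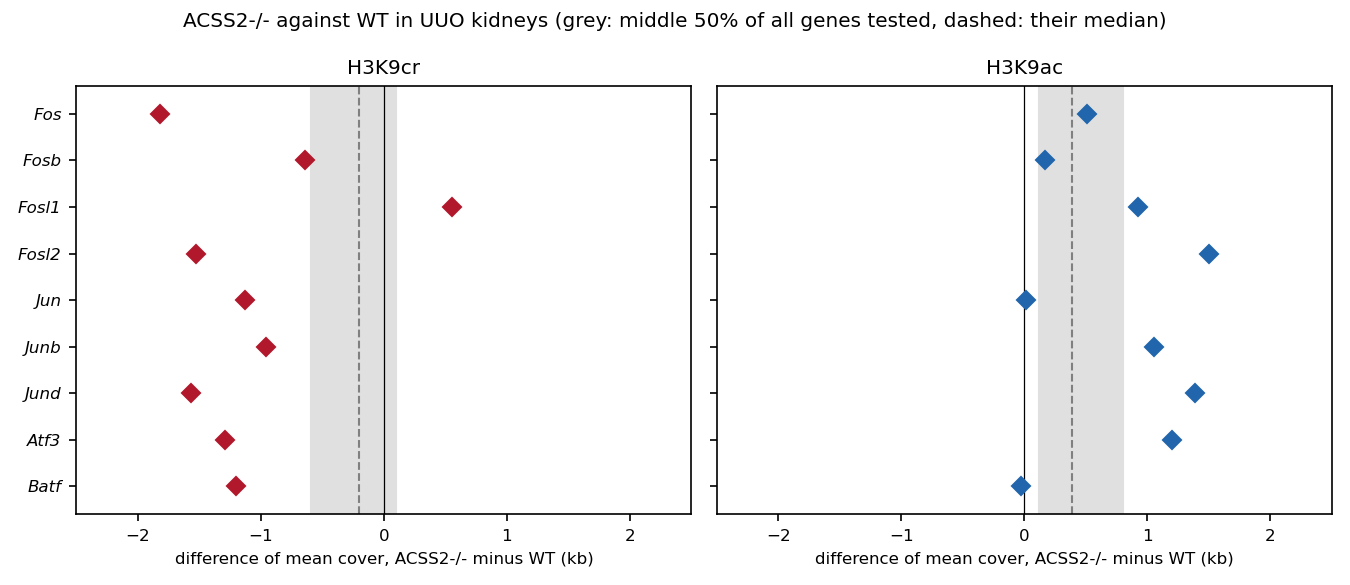
Points give the difference of mean cover, ACSS2-/- minus WT, in kb in UUO kidneys for each of the 9 genes, for H3K9cr (left) and H3K9ac (right), and the grey band holds the middle 50% of all genes tested with a dashed line at their median. In H3K9cr 8 of 9 points lie left of 0 and Fosl1 right of it, and in H3K9ac 8 of 9 lie right of 0, with medians over all genes of -0.20 kb and 0.39 kb.

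In control kidneys most AP-1 genes had the longer H3K9cr cover in ACSS2-/- mice, though not as a share of the total. H3K9cr cover was higher in both ACSS2-/- control libraries than in both WT control libraries for 6 of 9 genes (Fosb, Fosl1, Jun, Junb, Atf3 and Batf) and lower for Fosl2, beside 46.8% of all genes higher and 3.1% lower. Fosb held 2.44 and 3.30 kb in WT and 4.60 and 4.92 kb in ACSS2-/- libraries. Jun held 4.35 kb in each WT library and 5.09 and 5.19 kb in ACSS2-/- libraries. Fos did not separate, with 4.95 ± 1.01 kb in WT and 5.06 ± 0.42 kb in ACSS2-/- control libraries (SD, n = 2 each). As a share of the total cover, which was larger in both ACSS2-/- control libraries, 1 gene was higher (Batf) and 3 lower (Fosl2, Junb and Jund), beside 11.6% and 29.4% of all genes, and the direction of Jun, Junb and Atf3 turned.

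Of the 9 genes, Batf was the one with more H3K9cr than H3K9ac in each of the 4 groups. Its H3K9cr libraries held 1.92, 1.93, 3.37, 2.49, 3.85, 4.08, 3.35 and 2.17 kb and its H3K9ac libraries 1.10, 1.66, 0.99, 2.63, 1.5 and 2.06 kb. The mean difference within groups was 1.31 kb, with an exact permutation p of 0.00309, the smallest that exchanging the marks within groups can give, and an adjusted p of 0.0482 over 16666 genes. An adjusted p under 0.05 was reached by 1068 of these genes. The study describes the marks as measured on shared samples, so the libraries were also paired by group and the replicate number of the label. In ACSS2-/- UUO kidneys the numbers in the peak names would pair them the other way round. With the block by label, Batf was still higher in all 6 pairs, with a mean difference of 1.32 kb. The exact permutation p was 0.0312, the smallest that 6 pairs allow, and the adjusted p was 0.263. Of the 16666 genes, 7.85% were higher in H3K9cr in every group and 1.25% lower. When only the longest peaks of each library were kept, as many as the smallest list holds, or when cover was divided by the total of the library, Batf was no longer separate in all groups. The other 8 genes did not separate the same way in all 4 groups, with differences from -0.83 kb in Fosl1 to 1.22 kb in Jund. Fos overlapped in no group but changed direction. It had less H3K9cr than H3K9ac cover in control kidneys of both genotypes and more in UUO kidneys of both.

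Genes around AP-1 in the same pathway were counted in H3K9cr, UUO against control, from lists of names, where 2.34% of all genes were higher and 18.3% lower. Of 13 further basic leucine zipper genes, 2 were higher in UUO and 1 lower. These were Creb5, with 2.31 to 5.97 kb in UUO and 0.55 to 1.66 kb in control libraries, Batf2, with 1.45 to 2.28 kb and 0.56 to 0.81 kb, and Atf4, the factor of the integrated stress response, lower with 3.71 to 4.58 kb and 5.09 to 5.96 kb. Of 14 upstream kinases and serum response factors, 0 were higher and 3 lower, which were Mapk14 (p38 alpha, -6.81 kb), Mapk9 (JNK2, -1.16 kb) and Map2k4 (a JNK kinase, -0.51 kb), a share near that of all genes. Of 13 other immediate-early genes, Ier3 was lower (-2.31 kb) and none was higher. Of 13 AP-1 target genes 11 had a peak, with Cd44, the hyaluronan receptor, higher (1.77 kb) and Plau, the urokinase gene, lower (-3.71 kb). Within WT kidneys 7 of the 13 other immediate-early genes were higher in UUO and 1 lower, and within ACSS2-/- kidneys 0 were higher and 6 lower. Of all genes, 21.8% were higher and 26.7% lower in WT kidneys, and 4.35% and 54.5% in ACSS2-/- kidneys, so the 6 lower genes are near the background. In UUO kidneys, 4 of these 13 were lower in ACSS2-/- mice, as were 24.5% of all genes.

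The genes whose cover over the 14 libraries was most like that of Fos, which had the widest range of the 9 in H3K9cr at 4.90 kb, were looked for among 16118 genes on other chromosomes. They were Btnl2 and Hivep3 (Pearson r 0.93 each), and H2-Eb2, P2ry14 and Acp5 (0.92 each). The r is a description over 14 libraries that share groups and marks.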

How the data were processed

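H3K9cr and H3K9ac ChIP-seq peaks of mouse kidneys were used as deposited by the authors, 1 list of genome positions per library and no other value. Per the methods and labels, the authors aligned the reads with Bowtie2 to mm10, removed poorly mapped reads and duplicates, and called the peaks of each library with MACS2 (versions not given in the sources used here). Deeper sequencing lets more peaks pass, and the depth is unknown.

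Genes, strands and promoters came from RefSeq (GRCm38.p6, the assembly of mm10). Cover is the bp of the gene body with 10 kb either side that lay under a peak (overlap of at least 1 bp). It was computed in Python 3.11.15 with numpy 2.4.6 and pandas 2.3.3, and plotted with matplotlib 3.10.9. It was checked against bedtools 2.31.1 in 4000 windows, of which 0 differed. Groups came from the labels. Differences of means were tested by exact two-sided permutation of libraries for every protein-coding gene with a peak, with Benjamini-Hochberg adjustment over all of them, and a gene was called higher or lower when the groups did not overlap. In UUO against control, libraries were exchanged across the genotypes, while the marks were exchanged within groups only. The scripts were tested on simulated data. With 2 libraries against 2, groups separate often by chance, so counts are read against the share of all genes. H3K9cr and H3K9ac libraries with the same number in the label deviated from their group means with a correlation of -0.18 in WT UUO and -0.53 in ACSS2-/- UUO kidneys. The study describes the marks as of shared samples. In ACSS2-/- UUO kidneys the numbers in the peak names pair the marks the other way round, which would turn the sign of that correlation. In WT UUO kidneys they match for replicate 2 only.

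The 9 genes and all lists were chosen with earlier results of these data known. The lists were basic leucine zipper partners, upstream kinases and serum response factors, other immediate-early genes, AP-1 targets, and markers of kidney tubule, podocytes, leukocytes, endothelium, stroma and injured tubule. Named besides the 9 genes were neighbours in their windows, at most 4 called genes per pathway list with the largest difference, the 5 genes most like the AP-1 gene of widest range, and Acss2. Alternatives were windows of 3 kb and of 1 kb around the start, numbers or whole lengths of peaks, cover per Mb, the longest 15988 or 50% of the peaks, each genotype alone, replicate blocks and leaving out each library.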

Additional observations from a re-analysis of the deposited data

Results flagged for a closer look

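Fosl2 cover in the H3K9cr library of ACSS2-/- UUO replicate 2 was 7.49 kb, while the other 3 H3K9cr UUO libraries held 10.34 kb or more. It was the 1 library that stood apart by the criterion of Dixon among 27 groups of 4 libraries looked at, where chance alone gives about 1 group in 20. This library also had the least cover over the genome of the 8 H3K9cr libraries, 29.4 Mb, and the part of that in the Fosl2 value was not tested.

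For Fosb, Junb and Atf3, H3K9cr cover was higher in every WT UUO library than in every WT control library and lower in every ACSS2-/- UUO library than in every ACSS2-/- control library. The effect of UUO in WT minus that in ACSS2-/- kidneys was 2.53 kb in Fosb, 2.48 kb in Junb and 2.13 kb in Atf3. Each had a permutation p of 0.0556, the smallest possible, and an adjusted p of 0.523. Of all genes 5.79% separated in these opposite directions, and as a share of the total cover of each library none of the 3 did.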

How the results depend on the processing

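For H3K9cr, UUO against control, where 1 gene (Fos) was called, the number of AP-1 genes called was 0 with 3 kb either side and 0 with 1 kb around the start. It was 6 per Mb covered by the library and 2 with an equal number of longest peaks, beside 16.4% and 3.13% of all genes higher. In WT kidneys only it was 7, beside 21.8% of all genes higher. In ACSS2-/- kidneys only it was 7, with the balance of directions reversed to 2 higher and 5 lower, beside 4.35% and 54.5% of all genes. In alternatives chosen after seeing the data the number was 3 among libraries with peaks on chromosome Y (2 UUO and 3 control), all higher, as were 11.7% of all genes. Among those without (2 UUO and 1 control), 4 were higher and 2 lower, beside 21.1% and 51.3% of all genes. Leaving out 1 library gave 1 to 3, while 2.49% to 6.55% of all genes were higher and 18.8% to 26.2% lower. For H3K9ac, UUO against control, with 2 called, it was 1 with 1 kb around the start, 0 by number of peaks, 1 by the whole length of peaks, 4 per Mb covered (reversed, all higher in UUO), and 7 in either genotype only (82.6% and 85.9% of all genes lower), and leaving out 1 library gave 2 to 7. Fos (1.00 peaks more, 84.34 bp per Mb more) and Jun (75.32 bp per Mb more) turned there.

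For H3K9cr, ACSS2-/- against WT in UUO, with 7 called, it was 4 with 1 kb around the start, beside 24.6% of all genes lower. By number of peaks it was 1 (reversed, 4.21% of all genes higher), and per Mb covered 4. Leaving out 1 library gave 7 to 9, while 30.1% to 59.1% of all genes were lower and 10.6% to 30.9% higher. Fosb (1.5 peaks more) and Junb (0.50 peaks more and 30.86 bp per Mb more) turned. For H3K9ac in the same comparison, with 0 called, it was 1 by number of peaks and 2 per Mb covered, beside 1.82% and 17.5% of all genes lower. Leaving out 1 library gave 1 to 8, while 33.9% to 84.9% of all genes were higher and 2.23% to 29.1% lower. For H3K9cr, ACSS2-/- against WT in control kidneys, with 7 called, it was 1 with 1 kb around the start and 2 by number of peaks, beside 31.9% and 11.5% of all genes higher. Per Mb covered it was 4 (reversed, 29.4% of all genes lower). There Fosl2 turned by number of peaks (0.50), Jun (-10.75), Junb (-48.85) and Atf3 (-4.20) in bp per Mb, and Batf with an equal number of longest peaks (-0.38 kb). For H3K9cr against H3K9ac within groups, with 1 called, it was 0 with 1 kb around the start, 0 by number of peaks and 0 with an equal number of longest peaks. Per Mb covered it was 5 (reversed, all lower in H3K9cr, as were 27.3% of all genes). Fewer genes entered with 1 kb around the start, since 8 have a known strand. The cause of the other moves was not tested.

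The labels do not say that replicate numbers mark shared mice, and the study describes both marks as measured on shared samples. Same-numbered WT and ACSS2-/- libraries of a mark cannot come from the same mouse, and the labels name no batch. Their deviations from their group means correlated at 0.47 over 15878 genes for H3K9cr in UUO, 0.31 for H3K9ac in UUO and -0.18 for H3K9cr in control kidneys. With the replicate block, 1 gene was called for H3K9cr, UUO against control (higher, as 3.66% of all genes). For ACSS2-/- against WT in UUO, H3K9cr gave 8 (7 lower and 1 higher, beside 41.4% and 13.1% of all genes). H3K9ac in UUO gave 3 (all higher, as 50.7% of all genes). In control kidneys 7 were called (6 higher and 1 lower, beside 54.9% and 4.96% of all genes). With crossed numbers 8 were called there (6 higher and 2 lower, beside 59.2% and 5.71%). Between the marks 1 was called, and the adjusted permutation p of Batf went to 0.263. No paired analysis was possible for H3K9ac, UUO against control, because the control libraries carry replicate number 2 only.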
